A study of Mus musculus with 23 samples.

Results

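The cultured cells of the series form its baseline: 5 of its 23 RNA libraries, which the labels place in 2 batches. Replicates 1, 2 and 3 belong to batch 1 and replicates 4 and 5 to batch 2, and the comparison is batch 1 against batch 2. All 5 are labelled as group 2 innate lymphoid cells (ILC2s) taken directly from culture medium. The donors were male mice, transgenic and wild-type, on the B6.Cg-Tg(CAG-GFP)Smoc background and aged 8 to 10 weeks. Over 7 days they were given IL-33 into the peritoneum, an injection every 2 days. Cells of spleen and bone marrow were then selected on magnetic columns for CD25 and against Ter119, CD45R/B220, CD3ε, Gr1 and CD11b, and kept in culture for 14 days with IL-7, IL-33, IL-2 and IL-15. A final sort took CD45+Lin-ST2+KLRG1+CD127+ cells, and the labels do not say whether the baseline cells passed through it. The same protocol applies to both batches in the labels, which give no date, culture or donor for a library. The other 18 libraries, used here only for one comparison, are cells of the same origin that were transferred intravenously at 6 hours after an experimental stroke (MCAO, occlusion of the middle cerebral artery) and recovered from blood at day 1 or day 5 or from brain at day 5. Each of those 3 groups has 3 libraries in either batch.

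Granzymes are serine proteases that cytotoxic lymphocytes store in granules and release with perforin, which opens the membrane of a target cell. Mouse granzymes B to G and N lie in a cluster on chromosome 14, and the genes of the D, E and F subgroup are near-copies of each other. Lymphocytes that grow in IL-2 and IL-15 make granzymes in quantity and divide, and dividing cells switch on DNA replication genes through E2F factors and mitotic genes through factors that bind CCAAT boxes and other promoter elements. Growth also draws on glycolysis, nucleotide and amino acid synthesis and ribosome production, whereas ILC2s are known for type 2 cytokines rather than for killing.

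The batches differed in depth and the batch 2 libraries differed from each other. The batch 1 libraries held 12.8 M, 12.8 M and 14.3 M reads, and replicates 4 and 5 held 36.7 M and 36.8 M. Replicate 4 nevertheless had a read for 12479 genes and replicate 5 for 10551, against 13787 to 14167 genes in batch 1. Of 8571 genes with a normalized count of at least 100 in each batch 1 library, 461 (5.38%) had no read in replicate 5 and 24 (0.28%) had none in replicate 4. Of the 11304 genes tested, 7.08% to 9.92% were more than 2-fold apart between any pair of batch 1 libraries, 46.4% to 56.9% between a batch 1 and a batch 2 library, and 61% between replicates 4 and 5. By that share the batch 2 pair were no closer to each other than to batch 1. The Pearson correlation of log2 values across these genes was 0.771 between replicates 4 and 5, between the 0.806 to 0.818 of replicate 4 with batch 1 and the 0.714 to 0.730 of replicate 5 with batch 1. The difference between replicates 4 and 5 followed base composition: its median was -1.36 (log2) in the fifth of genes with the lowest GC content and 1.25 in the fifth with the highest, with a Spearman rho of 0.48 across 11299 genes. The batch difference followed transcript length instead (rho 0.33), from a median of -0.52 in the fifth with the shortest transcripts to 1.05 in the fifth with the longest. These correlations are across genes, which are not independent replicates, and share the same libraries. Counts from a fit with both trends removed, in which 1012 genes were higher and 910 lower, are given beside the lists below, and single values beside each named gene that lost its call. The part of GC content and length in the batch difference was not tested further.

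The labelled cell type was checked against its markers. Il1rl1 (ST2, the receptor for IL-33) had normalized counts of 5.42, 0 and 0 in batch 1 and 0 in both batch 2 libraries. Il7r, the IL-7 receptor alpha chain CD127, had 75.8, 18.3 and 11.6 in batch 1, against 16.9 and 0 in batch 2. Il5, a type 2 cytokine, had 1.81, 0 and 0 in batch 1 and no read in batch 2. These defining transcripts were thus at or near 0 in all 5 libraries. Klrg1, a receptor used for the sort, was abundant, with 17782, 17922 and 18025 in batch 1, against 15664 and 50175 in batch 2. Gata3, the transcription factor on which ILC2s depend, had 191, 203 and 139 in batch 1, against 534 and 510 in batch 2 (adjusted p = 0.0541, limma, and 0.0294 with the trends on GC content and transcript length removed). Transcripts of the T cell receptor complex were high throughout, with Cd3g at 45714, 49725 and 48050 in batch 1, against 80084 and 221732 in batch 2. The list of ILC2 identity and effector genes took 0.386% to 0.400% of the normalized total in batch 1, against 0.408% and 0.543% in batch 2. Of its 30 genes, 2 to 5 were at 0 in a batch 1 library, and 7 and 13 in batch 2. The T cell list took 0.511% to 0.527%, against 0.904% and 1.28%. Other ILC2 markers, among them Rora, Icos and Il17rb, are not given singly here. The single values go against the label at Il1rl1, Il7r and Il5. The libraries are called by the label's group name, the cultured baseline, in what follows.

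Granzymes D, E and F and many genes of DNA replication and mitosis were higher in batch 1, as were single metabolic genes such as Hk2, Mthfd1, Ctps and Atic. Platelet transcripts, the granule protease Ctsc and the receptor Tnfrsf18 were lower. In all, 641 genes (5.67% of 11304 tested) were higher and 389 (3.44%) lower in batch 1 at an adjusted p below 0.05 (limma on log2 of the normalized count plus 1, 3 against 2 libraries, Benjamini-Hochberg over all tested genes). All log2 differences below are batch 1 minus batch 2 on that scale, with the standard error of the fit. The median over all tested genes was 0.15. With equal library totals it was 0.30, and 718 genes were higher and 269 lower, so that 72.8% of calls were higher, against 62.2% with the deposited scaling. Every one of the 1030 called genes had its batch 1 libraries wholly above or wholly below its batch 2 libraries, but so did many others: 3338 genes (29.5%) lay above and 2701 (23.9%) below. Leaving out replicate 1, 2 or 3 left 0 calls by limma in either direction (1844, 1769 and 1818 genes at an unadjusted p below 0.05), and edgeR on all 5 libraries called 226 higher and 158 lower. Nothing in the labels says that the libraries of a batch are separate cultures, so the p-values measure only the spread between these libraries. The counts of every list below are to be read beside the shares of all genes, 5.67% higher and 3.44% lower. Over all 11304 genes limma had 3365 at an unadjusted p below 0.05, and DESeq2 called 1452 higher and 1308 lower.

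The upstream sequences of the granzyme genes are shown because Gzmd, Gzme and Gzmf, which were called, and Gzmc, which was not, share them closely. Each is the 160 bases before the annotated start on the gene's own strand (RefSeq, GRCm38.p6), 5′ to 3′. Capitals mark the longest run common to all 4, of 20 bases.
Gzmd, chr14:56132594-56132753, minus strand: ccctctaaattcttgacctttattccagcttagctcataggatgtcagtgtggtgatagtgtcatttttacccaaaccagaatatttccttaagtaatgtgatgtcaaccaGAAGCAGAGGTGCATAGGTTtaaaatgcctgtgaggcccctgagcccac
Gzme, chr14:56120626-56120785, minus strand: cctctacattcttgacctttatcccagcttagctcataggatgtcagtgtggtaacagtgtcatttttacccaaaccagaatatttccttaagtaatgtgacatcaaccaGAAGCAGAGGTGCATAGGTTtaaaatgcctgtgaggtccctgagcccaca
Gzmf, chr14:56211408-56211567, minus strand: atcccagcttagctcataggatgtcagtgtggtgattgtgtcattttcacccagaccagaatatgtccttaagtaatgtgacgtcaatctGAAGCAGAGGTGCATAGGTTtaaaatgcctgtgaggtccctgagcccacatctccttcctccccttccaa
Gzmc, chr14:56234658-56234817, minus strand: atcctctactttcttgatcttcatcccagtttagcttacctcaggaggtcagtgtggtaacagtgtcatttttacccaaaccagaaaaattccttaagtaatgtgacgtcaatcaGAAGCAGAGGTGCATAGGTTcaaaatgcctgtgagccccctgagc
Over the 250 bases before the start, Gzmd was 95.2% identical to Gzme and 88.2% to Gzmf, and Gzmc was 82.4% to 83.4% identical to these 3. The likeness of sequence extends to the transcripts, where Gzmd and Gzme were 93.5% identical in their aligned part. At a window of 100 bases only 0.231% of Gzmd windows occurred in another granzyme (Gzmg) and 0% of Gzme, Gzmf and Gzmc windows did; the reads were pairs of 150 bases. How reads were assigned to near-copies is not stated in the labels, and the split of counts among D, E and F is uncertain to that extent.

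Of the 10 tested members of the granzyme and perforin list, 3 were higher in batch 1 and 0 were lower, beside 5.67% and 3.44% of all genes, and the list's median difference was 1.28, against 0.15 for all genes. Gzmf (chr14:56205263-56211417) had normalized counts of 2142950, 2015000 and 2096680 in batch 1, against 140441 and 84549 in batch 2. Gzmd (chr14:56129556-56132608) had 854498, 953629 and 919079 in batch 1, against 62435 and 21012.5 in batch 2. Gzme (chr14:56117626-56120625) had 329009, 355267 and 352837 in batch 1, against 26458 and 3009 in batch 2. In all of these genes the batch 1 libraries lay close together, far above both batch 2 libraries, with replicate 5 the lowest. The log2 differences were 4.26 ± 0.33 for Gzmf (adjusted p = 0.0244), 4.65 ± 0.52 for Gzmd (adjusted p = 0.0277) and 5.27 ± 0.96 for Gzme (adjusted p = 0.0452, limma). With edgeR the adjusted p was 0.04 for Gzmf, 0.05 for Gzmd, just inside the threshold, and 0.0896 for Gzme. When the 3 batch 1 libraries were averaged into 1, none of these 3 genes passed (adjusted p from 0.304 for Gzme to 0.472 for Gzmf). In bulk RNA, fewer cells that express a gene and less of its RNA per cell cannot be told apart.

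The other granzymes did not pass the test, and they differed among themselves. Gzma, on chromosome 13, had 1567760, 1691670 and 1620690 in batch 1, against 388455 and 1764930 in batch 2 (difference 0.97 ± 0.70, adjusted p = 0.38). It was low in replicate 4 alone, and replicate 5 was above all of batch 1. Gzmb, the granzyme best known for triggering caspases, had 800448, 856956 and 851060 in batch 1, against 396840 and 620474 in batch 2 (adjusted p = 0.189). Gzmc, with the upstream run of 20 bases shown above, had 111999, 172939 and 173627 in batch 1, against 131188 and 169813 in batch 2, so that the batches overlapped (difference 0.01 ± 0.33, adjusted p = 0.99). Gzmn was the only granzyme whose batch 1 libraries all lay below batch 2, at 1377, 1458 and 1324, against 2579 and 2589 (difference -0.90 ± 0.20, adjusted p = 0.0583). Prf1, perforin, had 253100, 258180 and 265886 in batch 1, against 138659 and 53884 in batch 2 (difference 1.58 ± 0.46, adjusted p = 0.104). Gzmk overlapped between the batches, and the little expressed Gzmm had 30.7, 36.5 and 38.0 in batch 1, against 9.49 and 0 in batch 2 (adjusted p = 0.144). With the trends on GC content and transcript length removed, 7 of the 10 were higher in batch 1, among them Gzma (2.31), Gzmb (1.67), Gzmk (1.24) and Prf1 (1.75).

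**Figure D1:**
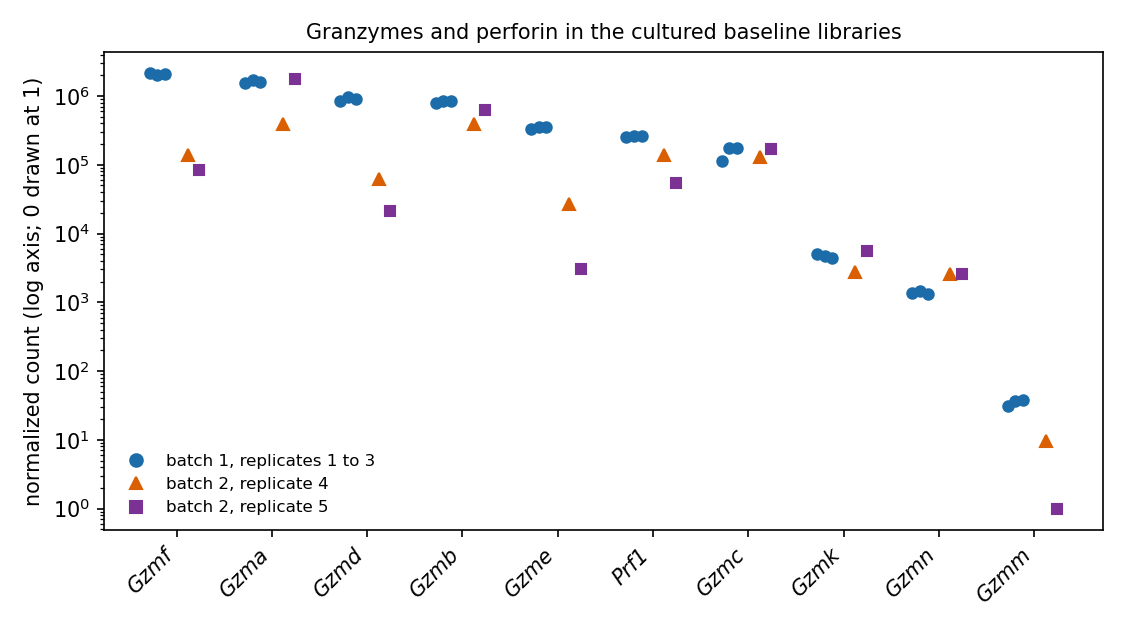
Normalized counts (log axis) of the 10 granzyme and perforin genes, 1 point per cultured library: circles for batch 1, the triangle for replicate 4 and the square for replicate 5 of batch 2. Gzmf, Gzmd and Gzme show batch 1 far above both batch 2 libraries, Gzma is low in replicate 4 alone, and Gzmc overlaps.

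Together these genes took 26.3%, 26.9% and 26.7% of the normalized total in batch 1, against 5.19% in replicate 4 and 10.0% in replicate 5. The genes that sort, process and accompany granzymes did not follow them, with a median difference of -0.82. Of 19 tested, 1 was higher and 3 were lower in batch 1, beside 5.67% and 3.44% of all genes. These counts were 2 and 4 with the trends removed, beside 1012 and 910 of all 11299 genes. Their summed share was 0.556%, 0.550% and 0.554% in batch 1, against 1.05% and 0.907% in batch 2. Ctsc, cathepsin C, the protease that removes the dipeptide keeping granzymes inactive, had 9252, 9770 and 9366 in batch 1, against 65294 and 55267 in batch 2. Both batch 2 libraries stood far above batch 1, a difference of -2.67 ± 0.21 (adjusted p = 0.0244, limma); with the GC and length trends removed it was -1.97 (adjusted p = 0.0871). Rab27a, the small GTPase that docks lytic granules at the membrane, went the other way, with 5244, 5622 and 5576 in batch 1, against 1867 and 1859 in batch 2 (1.56 ± 0.19, adjusted p = 0.0279). Stx11, a syntaxin of granule fusion, fell by 1.71 (adjusted p = 0.03), with 621, 608 and 588 in batch 1, against 2302 and 1705 in batch 2. Lamp1, a lysosomal membrane protein, fell by 1.23 (adjusted p = 0.0484). Fasl, the death ligand, had 3251, 3436 and 3357 in batch 1, against 5151 and 17997 in batch 2, and was not called (adjusted p = 0.16).

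Cell cycle genes were higher in batch 1. Of 38 tested S phase genes, 17 were higher in batch 1 and 0 lower, with a median difference of 2.61. Of 36 tested genes of G2 and mitosis, 12 were higher and 0 lower, with a median of 2.81, against 0.15 for all genes. The batch 1 libraries lay wholly above batch 2 in 34 of the 38 and in 35 of the 36 genes, beside 29.5% of all genes. Against replicate 4 the mean of batch 1 was higher in 37 S phase and 36 G2 and mitosis genes, and against replicate 5 in 36 and 35. The medians stood at 2.73 and 2.36 against replicate 4 and at 2.63 and 2.66 against replicate 5. Single genes nevertheless differed between the batch 2 libraries: 19 S phase genes were more than 2-fold higher in replicate 4 and 8 in replicate 5, and 18 and 11 of G2 and mitosis were, beside 61% of all genes in either direction. The S phase list took 0.448% to 0.459% of the normalized total in batch 1, against 0.118% and 0.114% in batch 2. The G2 and mitosis list took 0.234% to 0.248% in batch 1, against 0.0361% and 0.0391% in batch 2. With the GC and length trends removed, 26 of 38 and 24 of 36 were higher, 0 lower, and the medians were 2.79 and 2.86. With edgeR the counts were 8 and 5, with the batch 1 libraries averaged they were 5 and 2, and without replicate 1, 2 or 3 they were 0.

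The upstream sequences of 3 of these genes are shown with the promoter letters discussed for the lists (RefSeq, GRCm38.p6, each ending at the base before the annotated start). Capitals mark TTTCGCGC, an E2F-type motif, in Mcm5, and CCAAT or its reverse complement ATTGG in Top2a and Cdca3.
Mcm5, chr8:75109349-75109508, plus strand: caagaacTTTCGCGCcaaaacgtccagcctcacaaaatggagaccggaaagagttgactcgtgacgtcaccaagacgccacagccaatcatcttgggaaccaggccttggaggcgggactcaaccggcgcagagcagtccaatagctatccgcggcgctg
Top2a, chr11:99024190-99024429, minus strand: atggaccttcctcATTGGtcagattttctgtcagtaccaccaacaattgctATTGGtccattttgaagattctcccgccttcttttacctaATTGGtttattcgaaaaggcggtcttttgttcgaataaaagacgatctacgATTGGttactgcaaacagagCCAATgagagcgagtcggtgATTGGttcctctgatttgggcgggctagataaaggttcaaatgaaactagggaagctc
Cdca3, chr6:124830046-124830175, plus strand: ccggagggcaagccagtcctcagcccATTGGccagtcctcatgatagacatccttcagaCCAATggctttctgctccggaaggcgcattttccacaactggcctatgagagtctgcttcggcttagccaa
Top2a holds 6 such CCAAT boxes in 240 bases and Cdca3 holds 2 in 130 bases. Searched on both strands in the 250 bases before the start, CCAAT occurs in 33.8% of 32851 mouse promoters, TTTCGCGC in 0.256% and TTTGAA, part of the cell cycle homology region, in 16%. CCAAT was present in 25 of the 31 G2 and mitosis genes and 18 of the 29 S phase genes that have a promoter entry, and in 8 of 9 and 10 of 13 called ones. TTTCGCGC was present in Mcm5 and Mcm6 of the S phase list and in Cdk1 of the other, and TTTGAA in 11 of the 31 G2 and mitosis genes and 5 of the 29 S phase genes, and in 2 of 9 and 3 of 13 called ones. The list counts are of genes with a match in any of their promoter entries, whereas the shares are of single promoters, so their units differ. These matches describe the sequences and mark no bound site.

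The replication genes came first in the order of the cell cycle. Mcm5, a subunit of the replicative helicase, had 6878, 7480 and 7609 normalized counts in batch 1, against 424 and 386 in batch 2. Every batch 1 library was far above both batch 2 libraries, which lay close together (4.17 ± 0.20, adjusted p = 0.0244, limma). The helicase subunits Mcm2 (3.66), Mcm3 (4.08), Mcm4 (1.67) and Mcm7 (2.10) were also higher, whereas Mcm6 (2.08) did not pass (adjusted p = 0.068). Chaf1a, a chaperone that loads histones on new DNA, had 2202, 2687 and 2603 in batch 1, against 309 and 200.9 in batch 2 (3.31 ± 0.28, adjusted p = 0.0244). Rrm1 and Rrm2, the subunits of ribonucleotide reductase, rose by 2.23 and 2.67. Pcna, the sliding clamp of DNA polymerase, had 16296, 17326 and 17619 in batch 1, against 4200 and 9402 in batch 2, and did not pass (1.44 ± 0.40, adjusted p = 0.0931); with the trends removed it was 2.43 (adjusted p = 0.00803). Gins4 and Slbp were the S phase genes nearest to no difference, at 0.05 and -0.14.

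Among the mitotic genes, Top2a, the topoisomerase that untangles sister chromatids, had 13448, 13018 and 12967 in batch 1, against 430 and 635 in batch 2. The batches did not overlap, and the difference was 4.65 ± 0.25 (adjusted p = 0.0244, limma). Ccna2, cyclin A2, had 3649, 3372 and 3537 in batch 1, against 274 and 318 in batch 2 (3.57 ± 0.21, adjusted p = 0.0244). Cdca3, which helps to degrade the mitosis inhibitor Wee1, had 1182, 1006 and 1167 in batch 1, against 215 and 265 in batch 2 (2.22 ± 0.25, adjusted p = 0.027). These 3 genes were called, and a call favours genes that are even within each batch, so their evenness is not a separate result. Several better known markers, which were not called, were less even in batch 2. Mki67, the proliferation antigen Ki-67, had 3242, 3156 and 3194 in batch 1, against 77.2 and 1108 in batch 2 (3.44 ± 1.15, adjusted p = 0.135). Ccnb1, cyclin B1, had 980, 888 and 923 in batch 1, against 94.9 and 826 in batch 2 (adjusted p = 0.282). Both were below batch 1 in each batch 2 library but nearer to it in replicate 5. Ndc80, a kinetochore protein, was the gene of this list whose batches overlapped, at 589, 603 and 596 in batch 1, against 54.9 and 1051 in batch 2. Members more than 2-fold higher in replicate 4 than in replicate 5 had a median GC content of 48.3% (18 genes), and those more than 2-fold higher in replicate 5 one of 42.7% (11 genes).

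**Figure D2:**
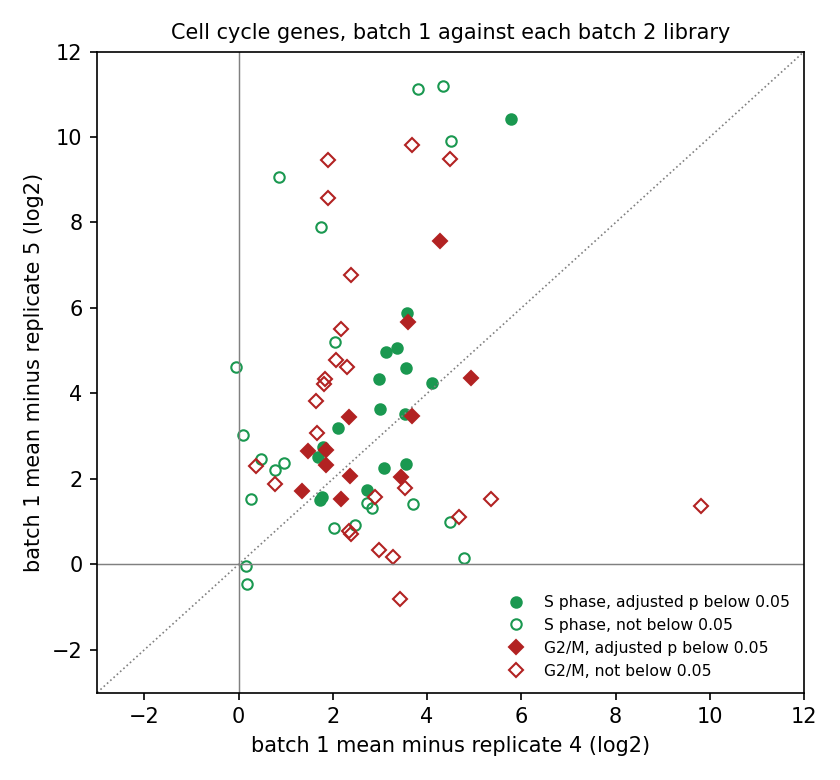
Each point is a tested S phase or G2 and mitosis gene; the x axis is the batch 1 mean minus replicate 4 and the y axis the batch 1 mean minus replicate 5, both in log2, with filled points for genes at an adjusted p below 0.05. Nearly all points lie above 0 on both axes, with medians of 2.73 and 2.36 on the x axis and of 2.63 and 2.66 on the y axis.

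Of 24 tested regulators of entry into the cycle, 3 were higher and 1 lower, with a median of 0.17. The fit without the trends gave 2 higher and 5 lower. Cdk6, a kinase that partners D cyclins, had 2712, 2544 and 2677 in batch 1, against 684 and 454 in batch 2 (2.24 ± 0.26, adjusted p = 0.0279). Rbl1 (p107), a pocket protein that binds E2F factors, rose by 2.18 (adjusted p = 0.0277), and the inhibitor Cdkn1b (p27) rose by 1.78 (adjusted p = 0.03, and 0.0632 with the trends removed). The antiproliferative gene Btg2 fell by 1.64, with 569, 438 and 362 in batch 1, against 1339 and 1468 in batch 2 (adjusted p = 0.0414). Cdkn1a, which encodes the CDK inhibitor p21, had 3278, 4186 and 4260 in batch 1, against 13057 and 6325 in batch 2. All batch 1 libraries lay below both batch 2 libraries, and the difference of -1.23 ± 0.38 did not pass (adjusted p = 0.118); with the trends removed it was -0.90 (adjusted p = 0.0355). Ccnd2, cyclin D2, had 10556, 11973 and 11629 in batch 1, against 10570 and 7892 in batch 2, with overlap (0.32 ± 0.24, adjusted p = 0.397), and -0.67 with the trends removed (adjusted p = 0.0505).

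Glycolysis and hypoxia lists held few called genes. Of 18 tested glycolysis genes 1 was higher and 1 lower, against 3 and 6 with the trends removed, and the median difference was -0.27. It was -0.72 against replicate 4 and 0.01 against replicate 5. Hk2, the inducible hexokinase that starts glycolysis, had 989, 1065 and 1060 in batch 1, against 143 and 180 in batch 2. It was the called rise of the list, with no overlap and a difference of 2.68 ± 0.25 (adjusted p = 0.0252, limma). Slc2a3, the glucose transporter GLUT3, was the called fall, with 8658, 8893 and 8846 in batch 1, against 17657 and 18393 in batch 2 (-1.03 ± 0.20, adjusted p = 0.0457). Ldha, which turns pyruvate into lactate, had 55798, 60602 and 60934 in batch 1, against 101004 and 97942 in batch 2 (adjusted p = 0.103). Aldoa, aldolase A, had 57414, 59179 and 61616 in batch 1, against 330843 and 117265 in batch 2, highest by far in replicate 4. The list took 1.18%, 1.25% and 1.27% of the normalized total in batch 1, against 3.15% and 1.51% in batch 2. The 8 glycolysis genes more than 2-fold higher in replicate 4 than in replicate 5 had a median GC content of 54.8%, and 0 were more than 2-fold higher in replicate 5. Of all 11304 genes, 3964 were more than 2-fold higher in replicate 4 and 2932 in replicate 5. Of 20 tested hypoxia targets 0 were higher and 2 lower, with a median of -0.86. At an unadjusted p below 0.05 in limma 10 were lower, beside 3365 of all 11304 genes in either direction. With the trends removed 0 were higher and 5 lower. Car9, a carbonic anhydrase induced by HIF-1, had 105, 84.0 and 109 in batch 1, against 633 and 1110 in batch 2 (-3.07 ± 0.40, adjusted p = 0.0294), and Bnip3l, a mitophagy receptor, fell by 1.61 (adjusted p = 0.0497), a call lost with the trends removed (-0.98, adjusted p = 0.0667).

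Respiratory genes differed between the batch 2 libraries, as did most genes. Of 24 tested genes of the tricarboxylic acid cycle and 52 nuclear genes of oxidative phosphorylation, limma and edgeR called 0 in either direction, with medians of -0.41 and -0.52. At an unadjusted p below 0.05, limma had 3 higher and 2 lower in the first list and 5 lower in the second, and DESeq2 called 4 higher in the first and 8 lower in the second. Over all 11304 genes limma had 3365 at that level in either direction, and DESeq2 called 1452 higher and 1308 lower. Within batch 2, 25 of the 52 were more than 2-fold higher in replicate 4 and 19 more than 2-fold higher in replicate 5, beside 3964 and 2932 of all 11304 genes. Uqcrc1, a core subunit of complex III, had 25143 in replicate 4 and 5101 in replicate 5, whereas Cox6c, a small subunit of complex IV, had 5736 and 24952. The median GC content of the 25 was 53.01% and that of the 19 was 46.8%. Of 41 cytosolic ribosomal protein genes, 20 were more than 2-fold higher in replicate 5 and 4 in replicate 4. Of all 11304 genes 2932 and 3964 were, a share of 61% in either direction. In batch 1 against batch 2, 1 of the 41 was higher and 0 were lower, with a median of 0.45. These lists also hold short transcripts, with medians of 1026 and 1120 bases against 3275 for all tested genes. With both trends removed, 16 ribosomal protein genes and 0 oxidative phosphorylation genes were higher in batch 1, and 0 of either were lower. Of the tricarboxylic acid cycle 3 were higher and 0 lower. In that fit the negative medians turned positive, to 0.12 for the tricarboxylic acid cycle and 0.32 for oxidative phosphorylation, against 0.17 for all genes. The direction of these 2 lists thus depends on the trends.

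In the list of amino acid, one-carbon and ATF4 target genes, 3 of 34 tested were higher and 3 lower, with a median of 0.46. These stand beside 5.67% and 3.44% of all genes. Removing the trends gave 11 higher and 4 lower, beside 1012 and 910 of all 11299 genes. Mthfd1, a folate enzyme that supplies one-carbon units for purines, had 1836, 1900 and 1811 in batch 1, against 259 and 251 in batch 2. The libraries of each batch were nearly equal, and the difference was 2.85 ± 0.21 (adjusted p = 0.0244, limma). Shmt1, which moves one-carbon units from serine to folate, rose by 2.19 (adjusted p = 0.0452), and Cth, of cysteine synthesis, rose by 4.82 (adjusted p = 0.048). Of the 3 that fell, Ddit3 (CHOP), a transcription factor of the integrated stress response, had 789, 771 and 845 in batch 1, against 7042 and 3526 in batch 2 (-2.64 ± 0.35, adjusted p = 0.03), and -1.49 with the trends removed (adjusted p = 0.199). Nupr1, a stress-induced nuclear protein, had 894, 1061 and 1018 in batch 1, against 6066 and 9362 in batch 2 (-2.93 ± 0.27, adjusted p = 0.0252). Slc7a3, a cationic amino acid transporter, fell by 1.73 (adjusted p = 0.0279).

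Of 21 tested genes of the pentose phosphate pathway and nucleotide synthesis, 2 were higher and 0 lower (median 0.49), beside 5.67% and 3.44% of all genes. With the trends removed 6 were higher and 1 lower. Ctps, which makes CTP, had 1287, 1264 and 1238 in batch 1, against 166 and 149 in batch 2 (3.0 ± 0.23, adjusted p = 0.0244, limma). Atic, the last enzyme of purine synthesis, had 2894, 3114 and 3201 in batch 1, against 504 and 451 in batch 2 (2.68 ± 0.21, adjusted p = 0.0244). Neither gene's batches came near each other. Of 25 tested genes of ribosome biogenesis and Myc, 3 were higher and 0 lower (median 0.71): the nucleolar helicase Ddx21 by 3.02, the RNA polymerase I subunit Polr1b by 2.44 and the nucleolar chaperone Nolc1 by 1.88. The fit without the trends gave 7 higher and 0 lower. Myc itself had 446, 400 and 360 in batch 1, against 170 and 0 in batch 2 (adjusted p = 0.218). Among 17 tested aminoacyl-tRNA synthetases only Qars was called, higher by 1.31 (adjusted p = 0.0336), against 4 higher and 2 lower with the trends removed.

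Lipid genes held few calls. Of 15 tested genes of fatty acid synthesis 2 were higher and 0 lower (median 0.90), against 3 and 0 with the trends removed. With edgeR 0 were called. In limma 7 were higher at an unadjusted p below 0.05, beside 3365 of all 11304 genes in either direction. Acly, ATP citrate lyase, which makes cytosolic acetyl-CoA, had 8584, 8417 and 8755 in batch 1, against 2894 and 4129 in batch 2 (1.31 ± 0.24, adjusted p = 0.0447, limma). With the trends removed its call was lost (0.75, adjusted p = 0.236). Elovl6, a fatty acid elongase, had 50.6, 54.8 and 46.2 in batch 1 and no read in batch 2. Fasn, fatty acid synthase, had 5956, 5658 and 6013 in batch 1, against 1305 and 285 in batch 2, which fell just short of the threshold (3.26 ± 0.68, adjusted p = 0.0541); with the trends removed it passed, at 1.62 (adjusted p = 0.00902). Of 23 tested cholesterol synthesis genes only the feedback regulator Insig1 was called, higher by 1.76 (adjusted p = 0.0299), and the median was -0.03 against replicate 4 and 0.81 against replicate 5. Removing the trends gave 3 higher and 3 lower. Of 17 tested genes of fatty acid oxidation 1 was higher (Hadha, by 1.03) and 2 were lower (the thiolase Acaa2 fell by 1.84 and the carnitine carrier Slc25a20 fell by 1.28), with a median of -0.79. With the trends removed 0 were higher and 2 lower, and Hadha was at 0.64 (adjusted p = 0.16). The lists of heat shock with the unfolded protein response (24 tested) and of apoptosis (23 tested) had 0 calls in either direction by limma and edgeR. At an unadjusted p below 0.05, limma had 6 higher and 1 lower in the first and 5 higher and 4 lower in the second. DESeq2 called 5 higher in the first and 2 higher and 4 lower in the second. In the fit without the trends 9 were higher and 1 lower in the first and 3 and 3 in the second. Over all 11304 genes limma had 3365 at an unadjusted p below 0.05, and DESeq2 called 1452 higher and 1308 lower.

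**Figure D3:**
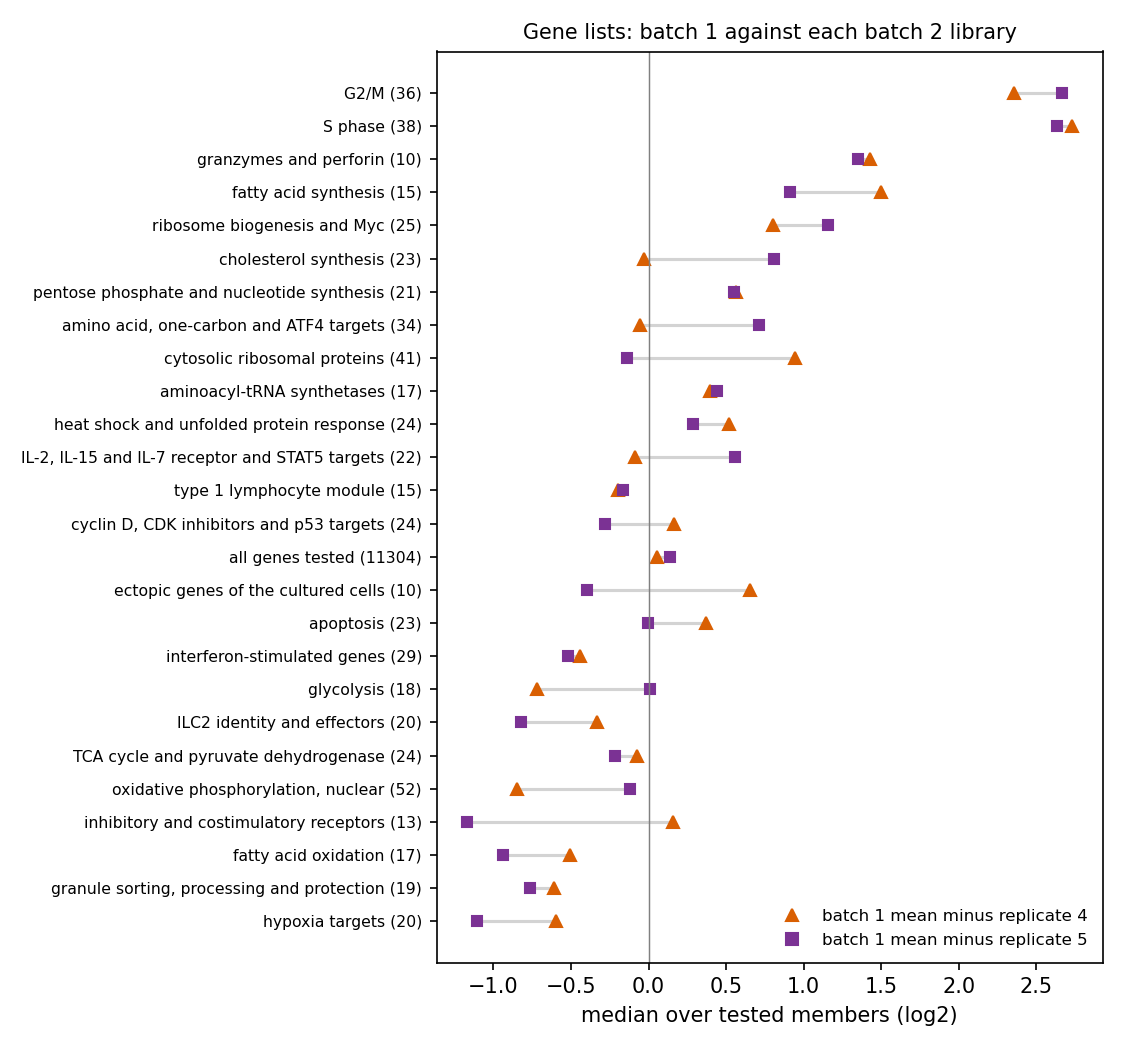
Median log2 difference over the tested members of each gene list (number in brackets): triangles give the batch 1 mean minus replicate 4 and squares the batch 1 mean minus replicate 5. The medians of both cell cycle lists lie above 2 against each batch 2 library, and those of glycolysis, cholesterol synthesis and cytosolic ribosomal proteins differ between the 2 libraries.

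Cytokines, receptors and genes outside the usual range of lymphocytes were among the called genes. Ifng, interferon gamma, had 3435, 3339 and 2963 in batch 1, against 612 and 550 in batch 2, with no overlap (2.48 ± 0.21, adjusted p = 0.0244, limma). It was the 1 called gene of 15 tested in the type 1 lymphocyte list (0 lower, median 0.19), against 2 higher and 1 lower with the trends removed. In the ILC2 list 1 of 20 tested was higher and 2 were lower (median -0.34), against 2 and 3 with the trends removed. Of all genes 5.67% were higher and 3.44% lower, and with the trends removed 1012 and 910 of 11299 were. The transcriptional repressor Gfi1 rose by 1.42 (adjusted p = 0.0342). Il10, an anti-inflammatory cytokine, had 57.8, 43.8 and 67.7 in batch 1, against 405 and 991 in batch 2 (-3.49 ± 0.57, adjusted p = 0.0366), and Calca, which encodes the neuropeptide CGRP, fell by 3.08 (adjusted p = 0.0474), and was at -2.21 with the trends removed (adjusted p = 0.0753). Il2ra, the IL-2 receptor alpha chain CD25 used in the selection, overlapped, at 14363, 13604 and 13451 in batch 1 and 13772 and 21066 in batch 2. Of 22 tested genes of the IL-2, IL-15 and IL-7 receptors and STAT5 targets only the kinase Pim1 was called, higher by 2.34 (adjusted p = 0.03), against 2 higher and 4 lower with the trends removed. Of 13 tested inhibitory and costimulatory receptors 0 were higher and 2 lower (median -0.72), against 2 and 1 with the trends removed. Tnfrsf18 (GITR) had 2008, 1965 and 2182 in batch 1, against 14708 and 12899 in batch 2 (-2.75 ± 0.20, adjusted p = 0.0244), and Cd28 fell by 1.07 (adjusted p = 0.0484), a call lost with the trends removed (-0.81, adjusted p = 0.251).

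The cultured cells also held transcripts of milk and enamel proteins, a list drawn up from earlier results on these libraries. Csn1s1, alpha-S1-casein, had 38917, 35644 and 37477 in batch 1, against 2975 and 1751 in batch 2 (4.03 ± 0.30, adjusted p = 0.0244, limma). Csn2, beta-casein, rose by 3.10 (adjusted p = 0.0279, and 0.0777 with the trends removed), and Ambn, ameloblastin, had 49324, 45383 and 45354 in batch 1, against 5979 and 3236 in batch 2 (3.41 ± 0.33, adjusted p = 0.0252). Csn3, kappa-casein, encoded in the same casein cluster, had 5844, 4886 and 5728 in batch 1, against 5005 and 8147 in batch 2, with overlap (adjusted p = 0.616). Spp1, osteopontin, had 137829, 129269 and 131215 in batch 1, against 378054 and 956221 in batch 2 (-2.18, adjusted p = 0.0562). Of 10 tested members of this list 3 were higher and 1 was lower (Dsc1), with a median of 0.03, against 3 and 2 with the trends removed. Among 29 tested interferon-stimulated genes the antiviral sensors Oas3 (1.77) and Oas2 (4.50) were higher, and Isg20 (-1.46), Igtp (-1.54) and Xaf1 (-1.40) were lower, with a median of -0.20. Removing the trends gave 2 higher and 5 lower, beside 1012 and 910 of all 11299 genes.

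Markers of other cell types moved with the batches for several lists, among them platelets, red cells and T cells. Of 11 tested platelet genes 0 were higher in batch 1 and 9 were lower, and all 11 had every batch 1 library below batch 2; with the trends removed 10 were lower. Their summed share, of 13 in the table, was 0.0213% to 0.0231% of the normalized total in batch 1, against 0.116% and 0.0623% in batch 2. Most of the batch 1 share came from Itgb3, an integrin chain, and Gp5, a platelet glycoprotein, was at 0 in all 3 batch 1 libraries and at 1117 and 90.1 in batch 2. Tubb1, the tubulin of platelets, had 3.61, 3.65 and 1.65 in batch 1, against 1459 and 1002 in batch 2 (-8.30 ± 0.69, adjusted p = 0.0244, limma). Red cell genes took 0.00104% to 0.00205% in batch 1, against 0.409% and 0.0303% in batch 2; Hba-a1, a haemoglobin chain, had 282, 285 and 0 in batch 1, against 98916 and 7393 in batch 2. Of 3 tested red cell genes 0 were higher in batch 1 and 1 was lower. T cell genes took 0.511% to 0.527% in batch 1, against 0.904% and 1.28% in batch 2. Of 14 tested 2 were lower, beside 3.44% of all genes. Cd3d, a chain of the T cell receptor complex, had 18614, 19238 and 19974 in batch 1, against 43049 and 44958 in batch 2 (-1.19 ± 0.21, adjusted p = 0.0411), and the adaptor Lat fell by 2.00 (adjusted p = 0.0316).

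Markers of B cells, neutrophils and dendritic cells separated replicate 1 from the other batch 1 libraries rather than the batches. The dendritic cell share was as high in replicate 4 (0.0307%) as in replicate 1 (0.0312%). The B cell list took 0.0298% in replicate 1, 0.00696% in replicate 2 and 0.00063% in replicate 3, against 0.0082% in replicate 4 and 0.00127% in replicate 5. Neutrophil genes took 0.0324% in replicate 1 and 0.00461% to 0.00489% in the other batch 1 libraries, against 0.00733% and 0.00878% in batch 2. Other shares did separate the batches. Monocyte and macrophage genes took 0.02458% to 0.03265% in batch 1, against 0.1226% and 0.04794% in batch 2. NK cell genes took 0.02482% to 0.02801%, against 0.01461% and 0.02004%. The mast cell, basophil and eosinophil list took 0.01592% to 0.01815%, against 0.01286% and 0.01226%. None of the tested B cell (13), neutrophil (12), dendritic (9), monocyte and macrophage (10), NK (5) or mast cell with basophil and eosinophil (6) genes was called by limma or edgeR; DESeq2 called 0 to 2 of each in a direction, and 0 to 2 had an unadjusted p below 0.05. Sparc, a matrix protein, was called lower among 2 tested stromal genes. The fit without the trends called 1 gene of the mast cell list higher and 1 stromal, 1 red cell and 2 T cell genes lower. Whether carried-over cells or RNA contribute to the batch differences in granzymes, cell cycle or metabolism was not tested.

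**Figure D4:**
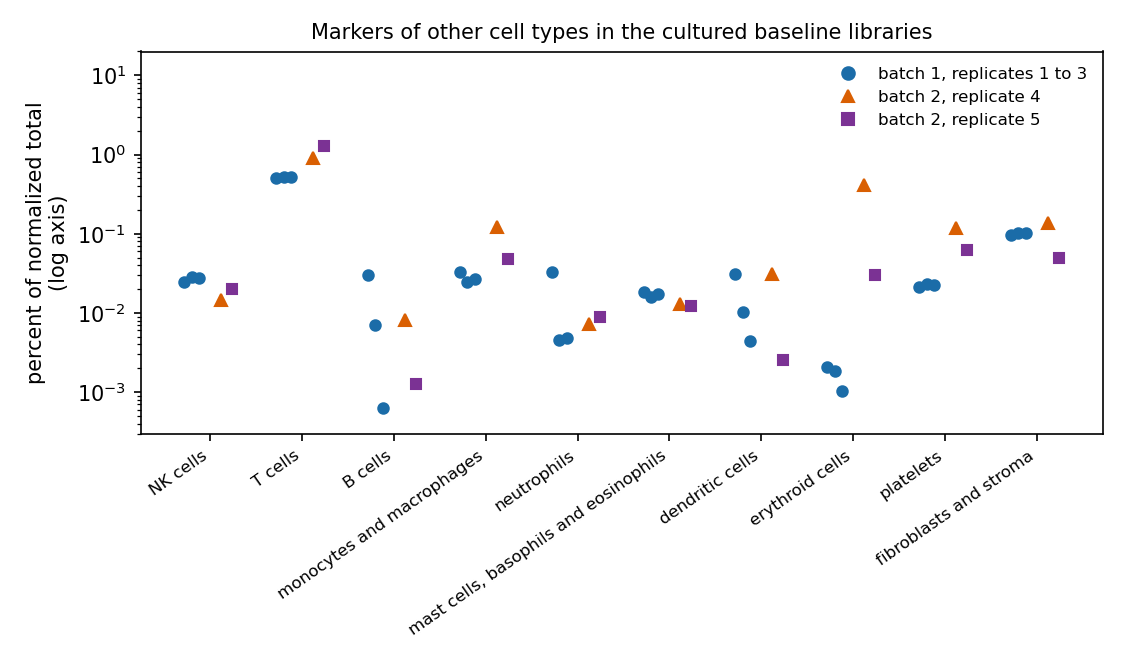
Summed share of the normalized total (percent, log axis) taken by markers of each cell type, 1 point per cultured library: circles for batch 1, the triangle for replicate 4 and the square for replicate 5 of batch 2. Platelet, red cell, T cell, and monocyte and macrophage shares are higher in both batch 2 libraries. NK and mast cell shares are lower there, and the B cell and neutrophil shares are highest in replicate 1 of batch 1.

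The largest called differences, among genes with at least 100 normalized counts in the higher batch and a read in the other, included 8 rises and 8 falls that were followed up. Espl1, separase, which cuts cohesin at anaphase, had 1040, 1072 and 1121 in batch 1, against 4.07 and 0 in batch 2 (8.90 ± 0.84, adjusted p = 0.0252, limma). Mcm10, a replication initiation factor (8.10), Ticrr, which fires replication origins (7.18), Zwilch, of the kinetochore checkpoint (7.48), and Fanca, of crosslink repair (7.79), are likewise known for roles in division or DNA. The other rises were Ntng2, an axon guidance protein (7.51), the phosphatase Phlpp2 (7.10) and Fshb, the follicle-stimulating hormone beta chain (7.28). All of these rises but Ticrr were at 0 in replicate 5. Among the 8 largest falls, Ppbp, Tubb1, Gp1bb and Gp9 are platelet genes. Wnt10b, a Wnt ligand, had 1.81, 1.83 and 1.65 in batch 1, against 9391 and 6727 in batch 2 (-11.49 ± 0.55, adjusted p = 0.0244). Its batch 1 values, like those of Dsc1, Insrr and Serpinb9c, are exactly 1 read in each library. In the batch 1 baseline libraries 1586 to 1679 genes had exactly 1 read and 491 to 533 had exactly 2; 471 genes had exactly 1 read in all 3. In batch 2, 315 and 250 genes had 1 read and 70 in each had 2.

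A further 34 genes reached 100 in one batch and had no read in the other. The largest bounds, against a floor of 3 reads per library, belonged to Nr4a3, a nuclear receptor induced on activation, which had 1049, 999 and 966 in batch 1 and no read in batch 2, at least 473-fold higher. Cenpi, a centromere protein, had 657, 643 and 550 in batch 1 and no read in batch 2, at least 290-fold higher. Zgrf1, a DNA helicase (at least 290-fold), Rad54b, of recombination (at least 209-fold), Usp45, a deubiquitinase (at least 142-fold), and Prr11, linked to cell cycle progression (at least 128-fold), followed. These zeros stand in the deeper libraries, and 446 genes with at least 100 in replicate 4 likewise had no read in replicate 5. A read is worth 1.65 to 1.83 normalized counts in batch 1, against 0.68 and 0.74 in batch 2. The floor is thus lower in batch 2, and equal values give larger bounds where batch 1 holds the reads. Some of the 34 genes had reads in batch 2 alone. Among them Gp5, at a mean of 604, was at least 114-fold higher there, against 290-fold for Cenpi at a mean of 617.

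The libraries of transferred cells offer the same batch contrast outside culture, but they also held markers of other cells. In brain, monocyte and macrophage genes took 0.835% to 1.03% of the normalized total in batch 1 and 0.762% to 2.04% in batch 2. T cell genes took 0.00116% to 0.00177% and 0.00152% to 0.00214% there. In blood at day 1, red cell genes took 0.604% to 8.41% in batch 1 and 0.94% to 1.95% in batch 2. How far other cells enter these batch differences was not tested. In a fit of all 23 libraries, 1333 genes differed between batches in the baseline, against 16 in blood at day 1, 2 in blood at day 5 and 19 in brain at day 5. The baseline difference was above the mean of the 3 transferred differences for 1215 genes (10.7%) and below it for 897 (7.94%), adjusted p below 0.05 in limma. The higher share was 57.5% of these calls, against 68.1% with equal library totals and 40.7% with edgeR. Of the 1030 genes called in the baseline, 697 were also called in this test in the same direction, 333 were not called and 0 were called in the opposite one. This test contains the baseline difference by which the 1030 genes were called, so the shared direction is not an independent result. The difference in culture exceeded that in transferred cells for Gzmd (6.46), Gzme (7.23) and Gzmf (5.95), and for 23 of 38 S phase and 19 of 36 G2 and mitosis genes, with 0 lower. In transferred cells these granzymes had batch means of at most 182, and Gzmd and Gzme had no read in blood at day 5. Their values in this test thus rest partly on low counts. Mcm5 differed by 4.89 ± 0.59 more in culture and Top2a by 5.26 ± 0.74. Pcna, which did not pass within the baseline, passed here (1.69, adjusted p = 0.0097), as did Cdkn1a (-1.68, adjusted p = 0.0316). In transferred cells the S phase share was 0.045% to 0.192% in batch 1, against 0.0781% to 0.385% in batch 2. Granzymes and perforin took 0.204% to 2.03% in batch 1 blood, against 0.448% to 0.643% in batch 2 blood, and 0.0022% or less in every brain library.

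For most called genes the batch difference in culture and the mean batch difference of the 3 transferred groups had opposite signs. Of the 641 genes higher in batch 1 in culture, 571 (89.1%) had a mean difference of the opposite sign in transferred cells, and of the 389 lower, 377 (96.9%) did. The medians were 2.78 in culture against -0.39 in transferred cells for the first set and -2.05 against 0.46 for the second. Across all tested genes the correlation with that mean was -0.66 (Pearson, over 11304 genes, a description). With each group by itself it was -0.38 for blood at day 1, -0.46 for blood at day 5 and only -0.09 for brain at day 5. The median absolute difference was 0.967 in culture against 0.246 for the mean of the transferred groups. The contrasts share no library but share the table's scaling and whatever steps preceded its deposit. Whether the values were adjusted for batch over the whole table before deposit is not given in the sources used here and was not tested.

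**Figure D5:**
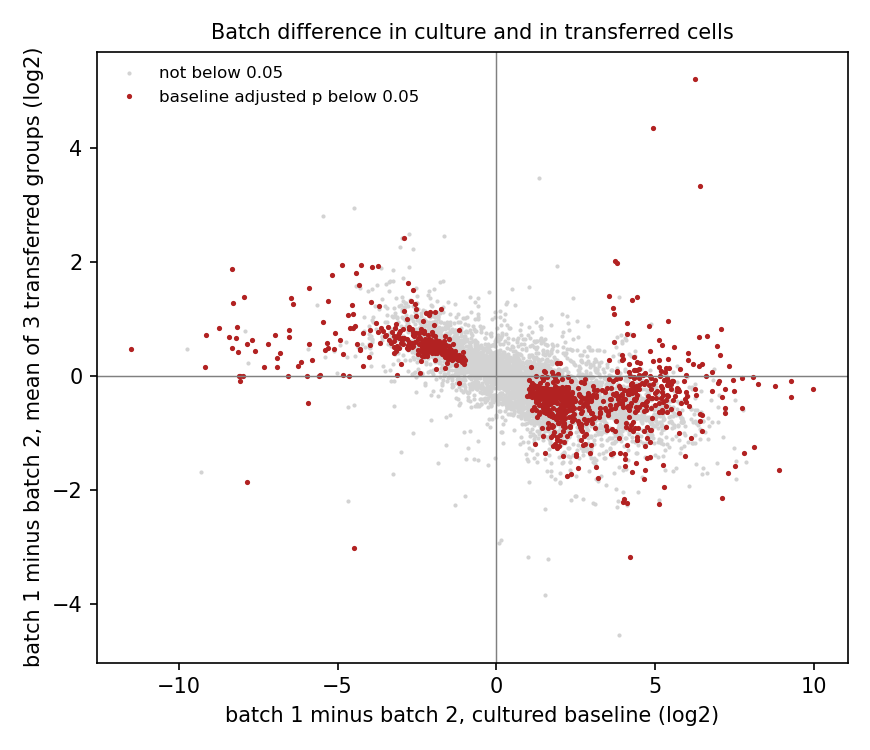
Each point is a tested gene: batch 1 minus batch 2 in culture on the x axis and the mean of that difference in the 3 groups of transferred cells on the y axis, both in log2, with called genes in red. The cloud slopes downward (r = -0.66), and the called genes spread far along x but little along y.

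Genes at 0 in all 12 batch 1 libraries of the series, 1137 of 19945, were left out of every test above. Of these, 387 had a read in a batch 2 baseline library and 39 reached 10 in both. Tuba1b, an alpha-tubulin, had 22731 and 13014 in batch 2 and no read in batch 1; Tuba1c had 18615 and 8727, the class I gene H2-Q6 73482 and 26000, and the exonuclease Trex1 14063 and 5541. In the GENCODE annotation 25.6% of the 39 share exon sequence on the same strand with another gene, against 8.61% of the tested genes. No gene was at 0 in all batch 2 libraries.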

How the data were processed

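The deposited table holds normalized counts of 19945 genes in 23 libraries, a signal that the authors scaled by a factor per library, as the values show. Every value divided by the library's smallest step gave a whole read within 0.1 read (100% of values). Per the submitters' processing notes, the tools were fastp and HISAT2 2.0.5 and the genome build mm10. The counter, annotation, strand setting and any adjustment for batch are not given in those notes or the labels.

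Genes at 0 in all 12 batch 1 libraries were left out, and 11304 genes that reached 10 in 2 or more of the 5 cultured libraries were tested. Differences of log2(value + 1), which understate the change of low genes, were fitted with limma 3.58.1 (R 4.3.3, trend and robust options, two-sided). The comparison with transferred cells used one fit of 8 group-by-batch means. edgeR 4.0.16 (quasi-likelihood) and DESeq2 1.42.0 were run on the recovered reads as alternatives. Each test was also run on simulated data with the same spread in every library. The libraries here differ in spread between the batches, so that run cannot vouch for their calls. Tested genes are named by a rule: the 8 largest called rises and falls, all granzymes, a fixed set of markers, up to 3 called genes per list and direction, and up to 6 genes without a read in one batch. Other members are named as examples chosen after their values were seen. The comparison, the members and the lists were chosen with earlier results of these data known. GC content and length come from the longest GENCODE M21 transcript of each symbol, matched for 11299 of the tested genes. The removal of their trends (splines with 5 degrees of freedom each, fitted per library) was chosen after seeing the data. Promoter sequences come from RefSeq tables of GRCm38.p6. Floors of 3 reads cover counting error only.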

Additional observations from a re-analysis of the deposited data

Results flagged for a closer look

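The batch difference in culture differed from the mean batch difference of the 3 groups of transferred cells, by a test of that difference in one fit (limma, adjusted p below 0.05), for 1215 genes in the positive and 897 in the negative direction. All values below are this difference of differences (log2). Among the genes with the largest differences in culture it was 10.56 for Espl1, 9.35 for Mcm10, 9.14 for Fanca, 9.10 for Ntng2, 7.74 for Zwilch, 8.98 for Fshb, 7.83 for Ticrr and 9.24 for Phlpp2. On the negative side it was -11.96 for Wnt10b, -9.34 for Dsc1, -9.57 for Insrr, -10.22 for Ppbp, -9.58 for Tubb1, -8.86 for Gp1bb, -8.57 for Gp9 and -8.06 for Serpinb9c. Ppbp, Tubb1, Gp1bb and Gp9 are platelet genes. Of the granzymes it was 6.46 for Gzmd, 7.23 for Gzme, 5.95 for Gzmf and 3.93 for Gzmm. Of the other named genes it was 5.26 for Top2a, 4.89 for Mcm5, 1.69 for Pcna, -1.68 for Cdkn1a, 5.47 for Myc, 3.66 for Hk2, 2.27 for Psat1 and 4.25 for Fasn. Of these, Gzmm, Pcna, Cdkn1a, Myc, Psat1 and Fasn had not passed within the baseline alone. The mean batch difference of the transferred cells had the opposite sign for most called genes, which adds to these values. The libraries of transferred cells also held markers of other cells, so these values do not concern the transferred cells alone. Some genes were at or near 0 in those libraries, where low counts enter the value. The batch means of Wnt10b, Dsc1 and Serpinb9c there were at most 1.02, and Gzmd and Gzme had no read in blood at day 5.

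Outside the tested genes, 39 genes without a read in any batch 1 library reached a normalized count of 10 in both batch 2 baseline libraries.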

How the results depend on the processing

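The counts of genes higher and lower in batch 1 (641 and 389) depended most on the libraries. They ranged from 0 to 4690 and from 0 to 3795 when 1 cultured library was left out: 0 and 0 without replicate 1, 2 or 3, 4690 and 3795 without replicate 4, and 4026 and 3179 without replicate 5. They were 226 and 158 with edgeR, 1452 and 1308 with DESeq2, 75 and 60 with the batch 1 libraries averaged (the lone sample is then assumed to vary like the other groups), 423 higher with a minimum value of 50, and 1012 and 910 with trends on GC content and transcript length removed. Of the 1030 calls, 384 were shared with edgeR, 1004 with DESeq2, 100 with the averaged libraries and 722 with the trends removed, each in the same direction. Equal library totals raised the share of calls that were higher to 72.8%, against 62.2%, and moved the median of all genes to 0.297 from 0.148. Other pseudocounts, scalings, thinning and rules on zeros kept both counts within 1.5 times. Batches 1 and 2 share no replicate number, so no paired analysis of the baseline was possible. In the comparison with transferred cells (1215 and 897), the replicate block gave 1205 and 1008, equal totals 533 lower and 68.1% higher against 57.5%, and edgeR 733 higher and 40.7%. Leaving out 1 cultured library gave 557 to 1967 higher and 498 to 1060 lower.

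Among the named genes, directions turned only for those that were not called. Leaving out 1 library could not turn the baseline direction of a called gene, because its batches did not overlap. Leaving out 1 cultured library took the baseline difference of Gzmc between -0.1807 and 0.2153, Gzma between -0.1184 and 2.0654, Gzmk between -0.2367 and 0.7867, Hmgcs1 between -0.0126 and 1.4116, Il2ra between -0.6102 and 0.0029 and Klrg1 between -1.4862 and 0.1932. Against transferred cells it took Gzmc between -0.1512 and 0.2449, Gzma between -0.0928 and 2.091 and Klrg1 between -1.4348 and 0.2446. With trends removed, Ccnd2 was -0.6724 and Klrg1 0.138 in the baseline, and Gzmn 0.3934, Ccnd2 -0.8351 and Klrg1 0.3331 against transferred cells. There Gzmc was also -0.419 with the block, -0.3757 with a pseudocount of 5 and -1.4799 against blood alone, where Gzma was -0.0445. The cause of these changes was not tested.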
